A study of Medicago sativa with 6 samples.

Results

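Root-enriched genes of alfalfa (Medicago sativa, a tetraploid forage legume) were chosen by their level alone: at least 10 normalised counts per 1000000 in roots, and at least 10 times the highest level in any of the other 5 tissues sequenced. The rule found 268 of 164633 annotated genes, or 0.163%, and 1.71% of the 15673 genes that reached the minimum level in roots. Roots were set against nodules, leaf, stem, flower and seedpod, all from the genotype RegenSY27x, with 1 library per tissue made from the pooled RNA of 3 harvests. Growth conditions were shared by all tissues, with 16 h of light, days of 22 °C and nights of 18 °C. For age, the growth protocol states 8 weeks whereas the stage label has the number 20 in a unit that is not clear, and the flower library is titled as flower buds. Pooling leaves no replicates within a tissue, so no difference has a replicate check and no p-value is given. The same values chose the genes, so the height of roots over the other tissues is a description and not a finding.

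Roots anchor the plant and take up water and mineral ions such as phosphate, nitrate and iron through the epidermis and its root hairs, with the endodermis controlling passage to the vascular tissue. Legume roots also form nodules, organs in which rhizobia fix nitrogen, and a nodule keeps a vascular connection to the root it grows from. Genes with high levels in plant roots commonly belong to families with many tandem copies, such as peroxidases, transporters and cytochromes P450. The deposited table gives identifiers without gene names, so no gene below is assigned a function, and the tissue labels could not be checked against marker genes. Chromosomes are written with their haplotype after the point (2.3 is haplotype 3 of chromosome 2). Positions are those of the deposited table, whose genome build is not given in the sources used here.

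Libraries held between 8568581 counts (roots) and 9883512 counts (nodules). Levels are counts per 1000000 of the library total scaled by the trimmed mean of M-values, written TMM CPM, and 1 count in roots is worth 0.106 TMM CPM. Brackets after a level or ratio hold 95% exact intervals, which cover counting error only. With library totals in place of TMM, levels would lie lower by 0.30 in leaf and 0.27 in nodules on the log2 scale, and higher by 0.14 in roots and 0.24 in stem. For a gene at 0, 3 counts set the limit of detection, between 0.288 TMM CPM in stem and 0.418 TMM CPM in leaf.

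The 268 genes together held 2.1% of all root counts, against 0.0979% of nodule counts and at most 0.0158% of the counts of any aerial tissue. Added up, their levels came to 19073 TMM CPM in roots, against 1183 in nodules, 154 in seedpod, 105 in stem, 85.3 in flower and 59.3 in leaf. Summed over the genes, roots therefore stood 16.1-fold above nodules (15.8 to 16.5), 124-fold above seedpod (118 to 131) and 321-fold above leaf (292 to 354). In bulk tissue, fewer cells of a type and less RNA per cell cannot be told apart. Most of the genes were of modest abundance: the median root level was 25.4 TMM CPM, and 105 genes lay between 10 and 20, 87 between 20 and 50, 40 between 50 and 100, and 36 at 100 or more. The 10 genes with most root counts carried 36.5% of the group's root counts.

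**Figure D1:**
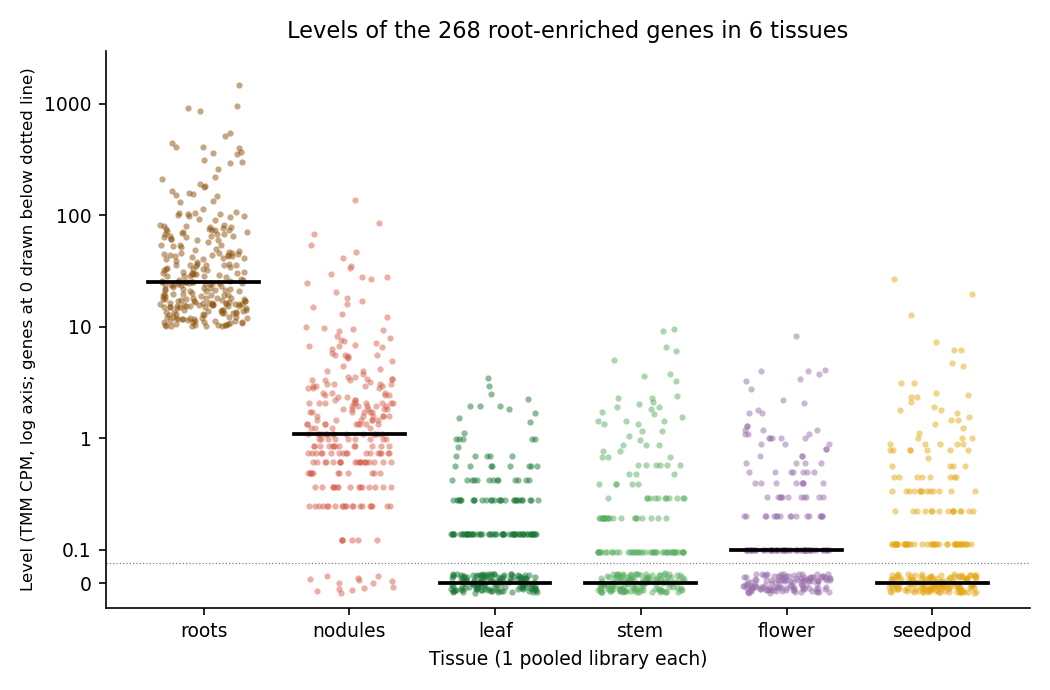
Levels of the 268 root-enriched genes in each tissue (TMM CPM on a log axis, 1 point per gene, black bar the median, genes at 0 drawn below the dotted line). The median was 25.4 in roots, 1.1 in nodules and at or near 0 in the aerial tissues; the height of the root points follows from the rule.

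Compared per kilobase of coding length, 2 short single-exon genes stood at the top of the group. MS.gene048252, on chromosome 2.3 from 62552957 to 62553340 on the minus strand with a coding length of 384 nucleotides (nt), reached 2513 TMM CPM per kb in roots. Its level was 965 TMM CPM in roots, against 85.2 in nodules, 1.81 in leaf, 1.0 in seedpod, 0.58 in stem and 0.30 in flower. Roots were thus 11.3-fold above nodules (10.5 to 12.2), and all 4 aerial tissues lay under 2 TMM CPM. MS.gene67404, on chromosome 6.1 from 15308068 to 15308874 on the plus strand with a coding length of 807 nt, had 1079 TMM CPM per kb in roots. It was at 871 TMM CPM in roots, against 67.4 in nodules, 12.8 in seedpod, 9.60 in stem, 3.48 in leaf and 1.79 in flower. Its ratio of roots to nodules was 12.9 (11.9 to 14.1), and seedpod and stem showed a low but counted level, from 115 and 100 counts.

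The most abundant gene before correction for length, chosen after its value was seen, lies on chromosome 2.3 from 23789559 to 23792189 and consists of a single exon of 2631 nt. It had 1479 TMM CPM in roots, against 136 in nodules, 2.56 in seedpod, 2.51 in leaf, 2.11 in stem and 0.99 in flower. The nodule level of this gene alone was the highest nodule level in the group, yet it was 9.19% of the root level.

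Nodules were the next highest tissue for 222 of the 268 genes (82.8%, 77.8 to 87.2). The background for this order is 51.6%: roots were highest of the 6 tissues in 3569 genes with a root level of 10 TMM CPM or more (12.6% of the 28247 genes reaching it anywhere), and nodules came next in 1843 of them. For 131 root-enriched genes nodules lay above the highest aerial tissue beyond counting error, and for 11 they lay below it. The nodule level was spread rather than a fixed share of the root level, with quartiles at 2.53% and 7.21%, a median of 4.69% and a highest value of 9.93%, which the rule bounds at 10%. In 27 genes nodules were under 1% of roots, in 126 they were at 5% or more, and 21 genes reached 10 TMM CPM in nodules. How much root tissue the nodule library held was not tested.

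**Figure D2:**
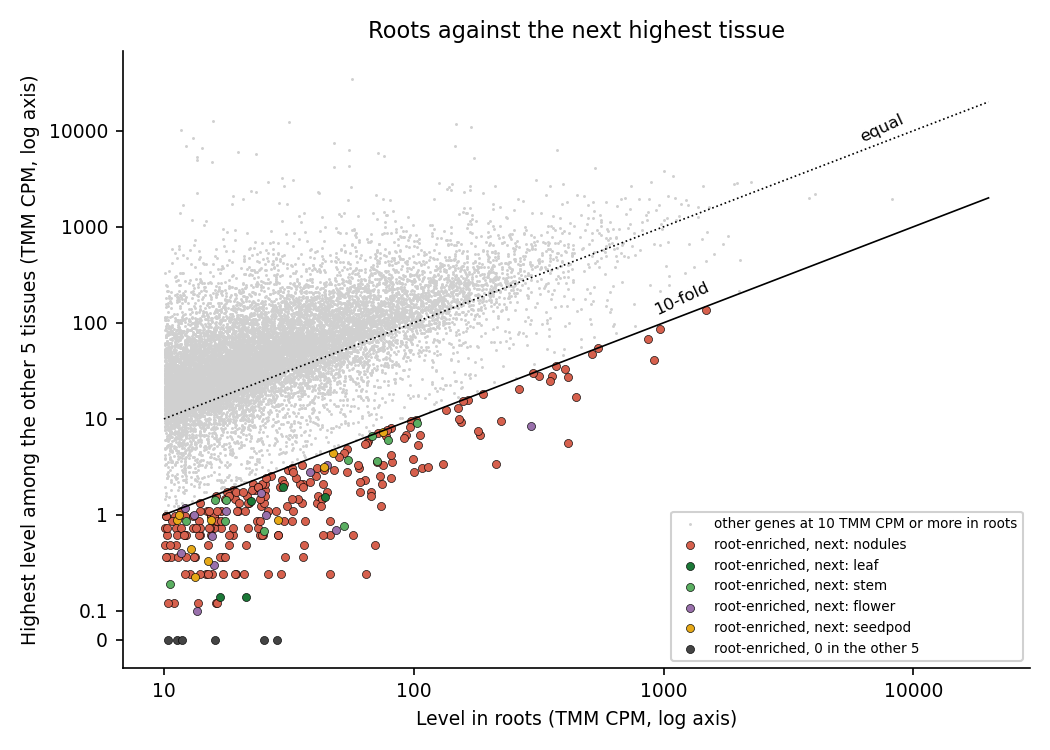
Level in roots (x, TMM CPM, log axis) against the highest level among the other 5 tissues (y, TMM CPM, log axis) for all genes at 10 TMM CPM or more in roots. Root-enriched genes, coloured by their next highest tissue, with those at 0 in the other 5 drawn at the bottom, lie on or below the 10-fold line by definition, and 222 of 268 have nodules next.

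The number of genes rests largely on the nodule library: without it the rule takes 1281 genes, against 318 without stem, 279 without leaf and 277 without flower or seedpod. Leaving a library out only removes a condition from the rule, so all 268 stay by construction and the number cannot fall. Set against the aerial tissues only, the 268 genes had a median ratio of 90.2, with quartiles of 32.6 and 193, when the 51 genes with no count in any aerial library are taken at their lower bound. In 219 of the 268 genes every aerial tissue was under 1 TMM CPM. Leaf, the tissue with the lowest sum, had no count for 139 of the genes, stem for 141, seedpod for 144 and flower for 128, whereas nodules had none for 14. Among the 31 genes with 1000 or more root counts, leaf was never at 0: its counts were 0.0591% of the root counts at the lowest and 0.143% at the median. Stem and flower did reach 0 among them. Stem was at 0 for a 396-nt gene on chromosome 8.2 with 2772 root counts, and flower for an 849-nt gene on 8.4 with 2478. The libraries were barcoded and sequenced together, and the source of the few leaf counts was not tested.

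A minority of 40 genes had an aerial tissue next highest: flower for 13, stem for 12, seedpod for 10 and leaf for 5. The most abundant gene with flower next, a single exon of 396 nt on chromosome 8.2 from 17605830 to 17606225, had 294 TMM CPM in roots, against 8.34 in flower, 3.42 in nodules, 0.56 in leaf, 0.45 in seedpod and 0 in stem. Roots were 35.2-fold above flower (28.4 to 44.3), and flower was above nodules, with 84 counts against 28. With stem next, a gene of 5 exons and 1755 nt on chromosome 8.1 from 22151027 to 22158398 had 103 TMM CPM in roots, against 9.12 in stem, 5.62 in nodules, 3.38 in flower, 2.92 in leaf and 2.34 in seedpod. All 5 other tissues were thus above the limit of detection for this gene, whose ratio was 11.3 (9.16 to 14.1).

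The top gene with seedpod next has 11 exons and 2352 nt on chromosome 7.2 from 25393589 to 25400610. It had 75.01 TMM CPM in roots, against 7.24 in seedpod, 5.26 in nodules, 2.30 in stem, 1.19 in flower and 0.14 in leaf, with a ratio of 10.4 (8.03 to 13.6). With leaf next, a gene of 2 exons and 303 nt on chromosome 6.4 from 58858802 to 58859414 had 44.1 TMM CPM in roots, against 1.53 in leaf, 1.34 in nodules, 0.20 in flower, 0.10 in stem and 0 in seedpod. Leaf and nodules held 11 counts each there, so their order is not resolved.

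The ratio of roots to the next tissue ran from 10.07 to 264, with a median of 19.4: 140 genes lay between 10 and 20, 89 between 20 and 50, 28 between 50 and 100, and 11 at 100 or more. Many lie within counting error of the threshold: the lower end of the interval was at 10 or more for 138 genes, while 6 further genes have 0 counts in all other libraries and only a lower bound. The highest ratios rest on 1 to 4 counts in the next tissue. The gene with the ratio of 264 (72.8 to 2187), a single exon of 669 nt on chromosome 1.3 from 46711910 to 46712578, had 64.6 TMM CPM in roots (609 counts), against 0.24 in nodules (2 counts), 0.10 each in flower and stem, and 0 in leaf and seedpod. A second 669-nt gene on chromosome 1.3, from 46764766 to 46765434, had 46.0 TMM CPM in roots and a ratio of 188 (51.8 to 1560), also from 2 counts in nodules.

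The 3 genes with most root counts among those with none elsewhere had 1 or 3 exons. On chromosome 1.1 from 49052272 to 49052940, a single exon of 669 nt had 267 counts in roots (28.3 TMM CPM), at least 67.8-fold higher than 3 counts in the library where these weigh most. On chromosome 2.3 from 30268186 to 30272182, a gene of 3 exons and 1053 nt had 237 counts in roots (25.1 TMM CPM), at least 60.2-fold higher on the same basis. On chromosome 1.4 from 53308776 to 53309444, another single exon of 669 nt had 151 counts in roots (16.0 TMM CPM), at least 38.3-fold higher. All 5 other libraries were at 0 for each of them, so how far below the limit of detection they lie is unknown.

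The values on either side of the threshold were close together. Just inside were ratios of 10.07, 10.14 and 10.15, for genes on chromosome 8.1 from 59514975 to 59515631, on chromosome 2.1 from 53629790 to 53637559 and on chromosome 4.1 from 30526697 to 30530237. Just outside were 9.98, 9.93 and 9.81, for genes on chromosome 5.1 from 549275 to 551970, on chromosome 2.4 from 56029158 to 56030383 and on chromosome 4.4 from 54102910 to 54104990. The gene just outside at 9.98 had 161 root counts against 14 in nodules, and its interval of 5.78 to 18.7 spans the threshold widely.

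Gene structure, which the rule did not use, differed between the root-enriched genes and all genes at the same minimum level in roots. Single-exon genes made up 77 of 268 (28.7%, 23.4 to 34.6), against 14.7% of those 15673 genes. Genes of 2 exons made up 21.3% (16.5 to 26.7) against 10.99%, and genes of 3 exons 18.3% (13.8 to 23.4) against 10.2%. Genes of 10 or more exons were rarer, at 5.60% (3.17 to 9.06) against 23.2%. The median coding length was 979.5 nt against 1248 nt, and the median span on the chromosome 1622 nt against 3332 nt. The intervals treat genes as independent, whereas copies on several haplotypes can enter together, so they are too narrow.

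**Figure D3:**
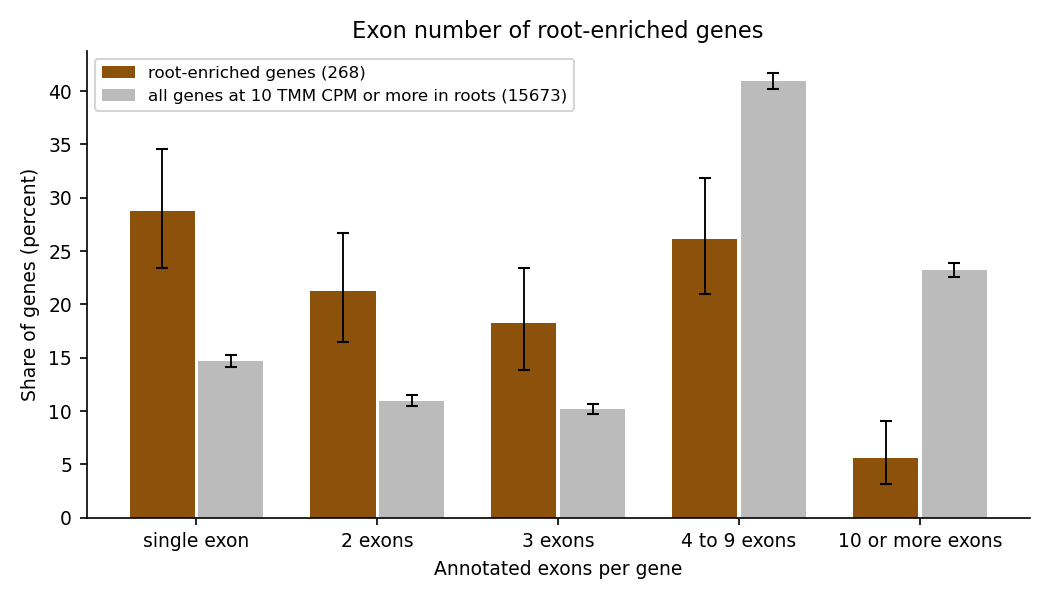
Share of genes (percent) by number of annotated exons, for the 268 root-enriched genes (brown) and all 15673 genes at 10 TMM CPM or more in roots (grey), with 95% exact binomial intervals. Root-enriched genes are more often of 1 to 3 exons (28.7%, 21.3% and 18.3%) and less often of 10 or more (5.60%).

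Single exons were not peculiar to roots among tissue-enriched genes: by the same rule, 23.4% of 920 nodule-enriched genes (20.7 to 26.2; 0.559% of all genes) and 17.7% of 503 leaf-enriched genes (14.5 to 21.3; 0.306% of all genes) had 1 exon. Within the root-enriched group, the median root level before division by length was 29.8 TMM CPM for the 77 single-exon genes, 24.6 for the 57 genes of 2 exons, 25.5 for the 49 of 3, 23.0 for the 70 of 4 to 9, and 32.6 for the 15 of 10 or more. Per kilobase the medians were 45.4, 30.5, 31.4, 20.1 and 20.8 TMM CPM per kb in the same order, and the median coding length was 753 nt for single-exon genes and 2352 nt for those of 10 or more exons. The median ratio of roots to the next tissue, a value the rule used, was 23.4, 19.3, 22.7, 17.1 and 12.2 in that order. None of the 268 spans, which run between the outermost annotated exons, overlaps another annotated gene. Whether reads of close neighbours entered their counts was not tested.

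All 8 chromosomes carried root-enriched genes, with 53 on chromosome 1, 39 on chromosome 4, 38 on chromosome 8, 37 on chromosome 2, 29 on chromosome 6, 28 each on chromosomes 5 and 7, 15 on chromosome 3 and 1 on a scaffold. As a share of each chromosome's genes above the same root minimum, they ranged between 2.73% on chromosome 6 and 0.769% on chromosome 3. Chromosome 3 held 5.60% of the root-enriched genes (3.17 to 9.06), against 13.0% of the genes that reached 10 TMM CPM anywhere. Haplotypes 1 to 4 carried 70, 61, 65 and 71 genes.

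Because the assembly lists 4 haplotypes, the same gene can be annotated up to 4 times, and near-identical copies compete for reads in a way that depends on counting choices not given here. Here a same-structure copy is a gene of 3 or more exons whose exon lengths, in order, equal those of a root-enriched gene on the same chromosome number; sequences were not compared. Of 134 root-enriched genes that this definition could take, 55 had no such copy, and 79 fell into 54 sets with 230 genes in all. In 18 sets more than 1 copy met the rule (43 genes), and in 5 sets all copies did. The share of all genes of 3 or more exons with such a copy is not given here, so these counts are a description.

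The copies that missed the rule still had roots highest more often than other genes. Of 151 such copies, 59 had under 10 counts in every library, 28 of them none at all. Of the other 92, roots were highest in 63 (68.5%, 58.0 to 77.8), against 13.9% of all 58619 genes outside the group with 10 or more counts in some library (14.3% when the group is included). Their median ratio of roots to the highest other tissue was 4.63 against 0.408, and 24 of them (26.1%, 17.5 to 36.3) reached 10 TMM CPM and 4 times the next tissue, against 0.643% of genes outside the group and 1.1% of all. The remaining 29 had another tissue highest: nodules for 10, flower, leaf and seedpod for 5 each, and stem for 4. The intervals of these shares treat copies as independent, whereas several can come from the same set, so they are too narrow. Summed over all copies of a set, the ratio of roots to the next tissue was 10 or more in 30 of the 54 sets, or 38 with library totals. These sums hold the counts of the root-enriched genes themselves, so they are a description. The part that reads shared between copies play in these counts was not tested.

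In a set of 3-exon genes of 570 nt on chromosome 4, the copies on all 4 haplotypes were root-enriched. The copy on chromosome 4.1 (25116095 to 25117191) had 100.4 TMM CPM in roots, against 2.81 in nodules, 0.11 in seedpod and 0 in leaf, stem and flower. The copies on 4.2 (27671048 to 27672145), 4.3 (28277752 to 28278849) and 4.4 (30466650 to 30467747) had 46.4, 16.8 and 15.1 TMM CPM in roots, against 0.86, 0.37 and 0.49 in nodules and at most 0.10 in any aerial tissue. The copies differed several-fold in root level, and on 4.3 and 4.4 nodules held 3 and 4 counts, too few to order the tissues below roots. Summed, roots were 39.5-fold above nodules (28.5 to 56.3), and this set and those below were chosen for description after their values were seen.

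A set of 16-exon genes of 2877 nt on chromosome 2 shows how copies straddle the threshold. Its copies had 352 TMM CPM in roots on 2.2 (50446466 to 50453949), 301 on 2.1 (53629790 to 53637559), 90.2 on 2.3 (52052939 to 52060499) and 78.2 on 2.4 (52818344 to 52826056). The ratios to nodules were 14.2, 10.1, 8.78 and 10.3 in the same order, so the copy on 2.3 alone missed the rule. Seedpod was close behind nodules in every copy, at 19.7, 27.0, 7.80 and 6.24 TMM CPM. The sum was 822 TMM CPM in roots, against 72.4 in nodules and 60.7 in seedpod, or 11.4-fold above nodules (10.4 to 12.4).

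In other sets all copies met the rule at root levels that differed several-fold. A set of 6-exon genes of 849 nt on chromosome 8 had 3 copies, with 317 TMM CPM in roots on 8.3 (62910354 to 62913057), 263 on 8.4 (65206655 to 65209138) and 97.6 on 8.1 (70493878 to 70496305), against 28.1, 20.7 and 9.41 in nodules. A set of 1551-nt genes on chromosome 5 also had 3 copies, with 223, 60.7 and 44.98 TMM CPM in roots, on 5.1 (76154721 to 76159214), 5.4 (74934081 to 74938388) and 5.2 (80269774 to 80273995), against 9.53, 2.20 and 1.71 in nodules. A 4-exon set of 882 nt on chromosome 7 went the other way: 1 of its 7 genes met the rule, at 17.7 TMM CPM in roots, while the sum was 155 TMM CPM in roots, against 442 in leaf, a ratio of 0.351.

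On a stretch of chromosome 2, 2 same-structure sets of 4-exon genes held root-enriched genes beside genes with levels above 10 TMM CPM in all 6 tissues. The sets comprise 13 genes of 1068 nt and 8 genes of 1062 nt, with 4 root-enriched genes among them. Whether the sets are related in sequence was not tested. Each haplotype carries on the minus strand a gene with a span of 1964 to 2052 nt and, next in the 1068-nt set, a gene with a span of 2832 to 2934 nt. The shorter-span genes had 1589 TMM CPM in roots on 2.3 (59964935 to 59966929), 1048 on 2.4 (60123469 to 60125520), 508 on 2.2 (58199722 to 58201685) and 31.3 on 2.1 (61381995 to 61383986). Nodules reached 526, 250.0, 111 and 6.36 TMM CPM there, so the ratios of 3.02, 4.19, 4.59 and 4.92 kept all 4 of them outside the rule.

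The longer-span partners were lower in roots but had higher ratios. They had 372 TMM CPM in roots on 2.3 (59983491 to 59986336), 35.9 on 2.4 (60146065 to 60148998), 11.1 on 2.2 (58242148 to 58244979) and 11.8 on 2.1 (61401768 to 61404641), against 35.4, 3.30, 0.73 and 1.34 in nodules. The ratios were 10.5, 10.9, 15.2 and 8.76, so 3 of the 4 met the rule, and aerial levels were at most 0.56 TMM CPM. On every haplotype the shorter-span gene had the higher root level and the lower ratio, although on 2.1 the intervals of the ratios overlap (3.66 to 6.75 and 4.71 to 18.1).

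On the plus strand, a 1062-nt gene on 2.3 (59760038 to 59762520) had 41.1 TMM CPM in roots, against 3.06 in nodules, and is root-enriched. The plus-strand gene of the same set on 2.2 (58005203 to 58007948) had 6.58 TMM CPM in roots, against 0.24 in nodules. Those on 2.1 and 2.4 had 2 counts and 1 count. Between the plus-strand genes and the pairs lie 7 minus-strand genes of both sets. Their ratio of roots to the highest other tissue was 0.305 to 1.32. Among them, the gene on 2.3 from 59800383 to 59802882 had 392 TMM CPM in roots, against 426 in nodules, 193 in seedpod, 140 in stem, 132 in leaf and 36.6 in flower. Its order of roots and nodules turned with library totals (ratio 1.22). Other minus-strand 4-exon genes there, outside both sets, varied more widely. On 2.3 the gene from 59791795 to 59795672 had 436 TMM CPM in roots against 175 in seedpod (ratio 2.48). The gene from 59816906 to 59819092 had 3.50 in roots against 381 in seedpod. Summed over the 13 genes of the 1068-nt set, roots stood at 3797 TMM CPM, against 1296 in nodules, a ratio of 2.93.

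**Figure D4:**
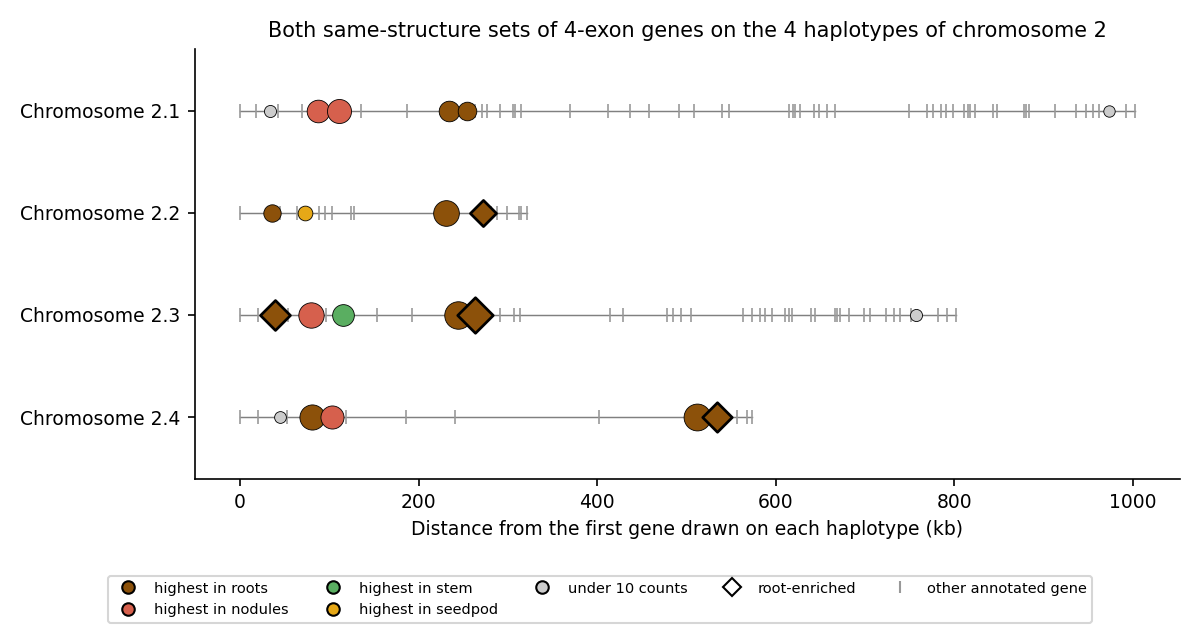
Positions of the same-structure 4-exon genes on the 4 haplotypes of chromosome 2 (x, distance in kb from the first gene drawn), coloured by highest tissue, with larger symbols for higher levels, diamonds for root-enriched genes and ticks for other annotated genes. On each haplotype a same-structure pair highest in roots lies to the right of same-structure minus-strand genes with ratios of 0.305 to 1.32. These are ratios of roots to the highest other tissue. The second of the pair is root-enriched on 2.2, 2.3 and 2.4, while on 2.1 its ratio is 8.76. Genes highest in roots also lie at the left. They include plus-strand genes on 2.2 (ratio 26.9) and 2.3 (13.4, root-enriched) and a tick on 2.3 at 436 TMM CPM (ratio 2.48).

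On chromosome 5, 19 genes of 5 exons and 1086 nt, spread over the 4 haplotypes, differed in their highest tissue along a stretch of each haplotype. Root-enriched genes lay at a single place in it. The gene there spans 3395 nt on 5.1 (21564581 to 21567975) and had 414 TMM CPM in roots, against 5.62 in nodules, 0.84 in leaf, 0.38 in stem, 0.22 in seedpod and 0.10 in flower, a ratio of 73.7 (55.1 to 101). On 5.3 (20342083 to 20345475) it had 36.3 TMM CPM in roots, against 0.49 in nodules and 0.10 in flower, a ratio of 74.2 (28.7 to 274). On 5.4 (21433525 to 21436901) it had 21 counts in roots, or 2.23 TMM CPM, and none in the other libraries, too low for the rule. The gene in that place on 5.2 (21619119 to 21622506) is annotated with 6 exons and 1047 nt and so falls outside the set, but spans 3388 nt, and had 69.8 TMM CPM in roots, against 0.49 in nodules and 0.28 in leaf, a ratio of 143 (55.5 to 526).

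The other 1086-nt genes of the stretch were low or at 0 in roots. Genes at the left with spans of 5136 nt on 5.1 and 5435 nt on 5.3 had 0 counts in roots, against 22.7 and 3.26 TMM CPM in stem, 12.5 and 2.48 in flower and 11.1 and 3.23 in seedpod. The next gene, with a span of 1997 to 2031 nt, had 0 counts in roots on each haplotype, against 24, 32, 4 and 12 counts in flower on haplotypes 1 to 4, and at most 1 count in any other library. A gene on 5.2 from 21554768 to 21556344 had 1.70 TMM CPM in roots, against 35.2 in nodules. On 5.2 the gene next to the root-enriched one, of 1089 nt on the minus strand (21623409 to 21625632), had 2.12 TMM CPM in roots, against 535 in flower. Some 1089-nt genes of the stretch were well counted in roots but higher in nodules. The gene on 5.2 from 21640162 to 21641775 had 134 TMM CPM in roots, above the root-enriched gene there, against 356 in nodules. Such genes had 44.2 in roots on 5.1 (21576431 to 21578127) and 26.7 on 5.4 (21447338 to 21449018), against 127 and 45.5 in nodules. On 5.3 (20354090 to 20355738) roots were at 1.49, against 9.90 in nodules. Over these chromosome 2 and chromosome 5 stretches, the highest tissue of 4 of the 32 genes checked changed with library totals and of 2 with DESeq2 size factors, none of them a root-enriched gene.

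**Figure D5:**
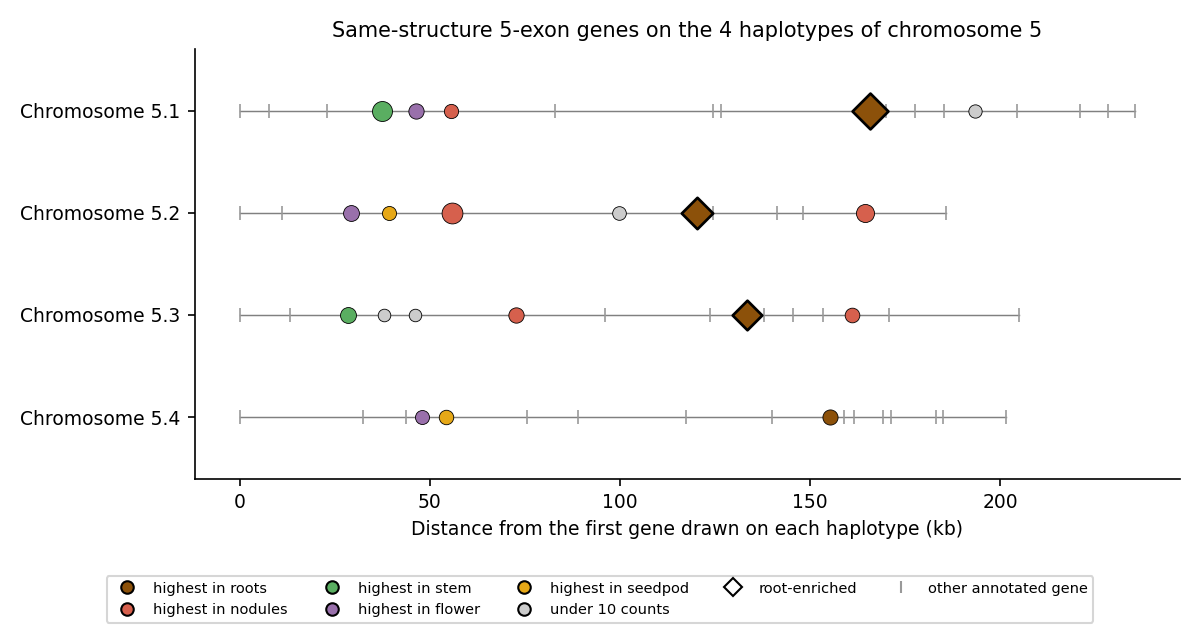
Positions of the same-structure 5-exon genes and of the root-enriched genes on the 4 haplotypes of chromosome 5 (x, distance in kb from the first gene drawn), coloured by highest tissue, with larger symbols for higher levels, diamonds for root-enriched genes and ticks for other annotated genes. Among the same-structure genes, most of those highest in stem, flower, seedpod or nodules lie to the left of the gene highest in roots. That gene lies at 120.2 to 165.8 kb on each haplotype and is root-enriched on 5.1, 5.2 and 5.3. On 5.2 and 5.3 a same-structure gene highest in nodules lies further right. Ticks further right include genes highest in flower on 5.2 (535 TMM CPM) and in stem on 5.4 (523 TMM CPM).

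Root-enriched genes also lay next to each other. Counting all annotated genes along each chromosome, 35 of 268 (13.1%, 9.27 to 17.7) had another root-enriched gene as direct neighbour, in 16 pairs and 1 run of 3. By the same count, 19.0% of 920 nodule-enriched genes (16.5 to 21.7) and 6.56% of 503 leaf-enriched genes (4.56 to 9.09) were adjacent to one of their kind. Larger groups have more neighbours of their own kind, so these shares are given side by side only. Of all annotated genes, 0.163% are root-enriched. How many of all genes lie beside a root-enriched one is not given here, so the count of 35 is a description. Of the 18 neighbouring pairs, 17 were on the same strand (94.4%), against 56.2% of all 158862 neighbouring gene pairs, and 13 had equal exon numbers (72.2%), against 18.4%. The median distance within a pair was 5574 nt, against 7035 nt for all pairs. Root levels within a pair differed by 3.12-fold at the median and 14.5-fold at most.

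The run of 3 lies on chromosome 6.2 from 25382461 to 25446569 and consists of single exons of 804, 774 and 774 nt on the plus strand. They had 154, 30.3 and 48.2 TMM CPM in roots, against 9.17, 0.86 and 2.93 in nodules, and at most 1.78 in any aerial tissue. On chromosome 8.1 from 59514975 to 59526451, a 657-nt single exon at 548 TMM CPM in roots, against 54.4 in nodules, is followed by a 3-exon gene of 1662 nt at 63.8 in roots, against 5.50 in nodules. Their ratios were 10.07 and 11.6. With DESeq2 size factors the 657-nt gene, at 9.93, no longer met the rule, while the 3-exon gene still did, at 11.4. They then no longer counted as neighbouring root-enriched genes. On chromosome 8.4 from 65190506 to 65209138, a pair of 6-exon genes had 18.1 and 263 TMM CPM in roots, against 1.59 and 20.7 in nodules.

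Some pairs had a pair of similar coding lengths on another haplotype of the same chromosome; whether they are the same genes was not tested. On chromosome 4.1 from 84226521 to 84246730, 3-exon genes of 948 and 966 nt had 184 and 67.6 TMM CPM in roots, against 6.72 and 1.71 in nodules. On 4.4 from 87845754 to 87852687, 3-exon genes of 945 and 828 nt had 131 and 11.2 TMM CPM in roots, against 3.42 and 0 in nodules. On chromosome 1.3 from 43253647 to 43261289, genes of 588 and 585 nt had 82.1 and 24.3 TMM CPM in roots, against 3.54 and 0.61 in nodules, and on 1.2 from 45984721 to 45992116 genes of the same lengths had 17.3 and 17.0 in roots, against 0.37 and 0.73 in nodules.

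The 490 direct neighbours that are not root-enriched themselves were a mixture. Of 243 with 10 or more counts in some library, roots were highest in 98 (40.3%, 34.1 to 46.8), against 13.9% of all such genes outside the group, and 18 (7.41%, 4.45 to 11.5) reached 10 TMM CPM and 4 times the next tissue, against 0.643%. The median ratio of roots to the highest other tissue was 0.703 against 0.408, so most neighbours had another tissue highest.

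Genes of 1 or 2 exons have too little structure for the same comparison, and the groups below were picked after their values were seen. Of 133 such root-enriched genes, 48 share their exon lengths and chromosome number with another root-enriched gene, in 19 groups. The same share over all genes of 1 or 2 exons is not given here, so the count is a description. Most groups also hold genes that missed the rule. All 3 genes of 1536 nt on chromosome 3 met it, but 3 of 27 genes of 645 nt on chromosome 6 did. The 669-nt single exons on chromosome 1 number 20, of which 4 were root-enriched: the 2 on 1.3 with the highest ratios, and those on 1.1 and 1.4 with no counts outside roots. Further 669-nt genes were counted in roots only, among them those with 6.47 TMM CPM on 1.1 (49060008 to 49060676), 4.56 on 1.2 (49970369 to 49971037) and 4.24 on 1.4 (53325386 to 53326054), all under the minimum. Elsewhere on the chromosome genes of that length behaved otherwise, such as the gene on 1.4 from 58578403 to 58579071, at 3.61 TMM CPM in roots, against 13.7 in flower. Of the 20, 6 had no count in any library.

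A 1173-nt single exon on chromosome 7 was root-enriched once on each haplotype, between 77058382 and 77059554 on 7.1, 78030300 and 78031472 on 7.2, 78396335 and 78397507 on 7.3, and 80299166 and 80300338 on 7.4. The levels were 80.8, 74.5, 42.8 and 42.5 TMM CPM in roots, against 2.44, 2.08, 1.47 and 1.22 in nodules. The ratios of 33.1, 35.8, 29.1 and 34.8 differed by less than their counting intervals, the narrowest of which runs from 21.3 to 54.4. Another 1173-nt gene, on 7.2 from 10568807 to 10569979, had 163 TMM CPM in roots, against 238 in flower, 140 in stem and 132 in seedpod.

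On chromosome 1, 8 genes of 2 exons and 678 nt form 1 pair on each haplotype, and 1 gene of the pair was root-enriched on 3 haplotypes. On 1.4 the root-enriched gene (71319564 to 71320978) had 213 TMM CPM in roots, against 3.42 in nodules, a ratio of 62.3, and the other gene (71311627 to 71312976) had 521 in roots, against 170.0 in nodules, a ratio of 3.06. On 1.3 the root-enriched gene (62991653 to 62993079) had 52.8 TMM CPM in roots, against 0.77 in stem and 0.49 in nodules, and on 1.2 (67421376 to 67422780) it had 21.2 in roots, against 0.14 in leaf and 0 in nodules. The other gene of these pairs was under 1 TMM CPM in roots on 1.3 and 1.2, unlike on 1.4, and on 1.1 both genes were low, at 1.17 and 0.53 TMM CPM in roots.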

How the data were processed

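RNA-seq of 6 alfalfa tissues was analysed, 1 library each. The authors deposited whole-number counts per gene, not normalised, with exon positions, strand and summed exon length, a quantity other than a count, per the file headers. Tools listed, per the submitters' processing notes and with no version, are Trimmomatic, FastQC, featureCounts and edgeR. Not given in the sources used here are the aligner, genome build, strand setting and handling of reads with several matches, so the split of reads between near-identical copies is uncertain. Of the exon-length sums 95.6% are multiples of 3, hence the name coding length.

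Levels are counts per 1000000 of the TMM-scaled total (edgeR 4.0.16, R 4.3.3), written TMM CPM; DESeq2 1.42.0 gave alternative size factors. A gene with 0 in all other libraries was set against 3 counts. Intervals are exact Poisson (levels) and exact Clopper-Pearson binomial, conditional on the sum for ratios (shares and ratios), at 95%. Without molecular identifiers, reads need not be independent molecules, so intervals cover counting error only. The scripts (Python 3.11.15, numpy 2.4.6, pandas 2.3.3, scipy 1.17.1, matplotlib 3.10.9) were tested on simulated data.

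The genes, lists and comparisons were chosen with earlier results of these data known. The 2 identifiers printed are those highest per kilobase in roots. Described by position were the top gene of the 3 same-structure sets highest in roots, the run of 3 neighbours and the 2 pairs with the highest summed root level, the 3 genes with most root counts and none elsewhere, the top gene per aerial next tissue, and the 3 genes on either side of the threshold. Others were chosen after their values were seen. A RefSeq table of 63463 genes from another assembly matched 0 identifiers, so gene lists for root hairs, endodermis, ion uptake, aquaporins, root meristem, isoflavonoids and peroxidases were not resolved. No sequence was analysed here. No count column was left out (0).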

Additional observations from a re-analysis of the deposited data

How the results depend on the processing

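Of 89 alternative values of the 7 main results, 67 kept within their limit (1.5 times a count, or the counting interval of a share or median) and 22 did not. Without the nodule library there were 1281 root-enriched genes, with a median ratio of 52.7, 23.3% single exons, 293 genes with a root-enriched copy, roots highest in 78.4% of the other copies, and 224 adjacent genes; nodules as next tissue then have no value. With a fold of 20 the values were 128 genes, 104 with nodules next, a median ratio of 35.5, 21 genes with a copy, 57.1% of other copies and 14 adjacent genes. With the lower end of the interval at 10 or more, the 6 genes without other counts included, they were 144 genes, 117 with nodules next, a median of 31.7, 34.7% single exons, 15 genes with a copy and 19 adjacent. Adjacent genes numbered 60 with library totals and 56 with a minimum of 5 TMM CPM. With copies defined by 4 or more exons, 23 genes had a root-enriched copy and roots were highest in 55.6% of other copies. Under the remaining settings the number of genes was 267 (DESeq2 size factors) to 380 (minimum of 5 TMM CPM), with 349 by library totals, of which 266 were among the 268. Of 96 alternative ratios of 24 described genes, 11 left their limit, by scaling or, for genes at 0 elsewhere, by a floor of 1 count. That limit was the counting interval or, for genes at 0 elsewhere, which have none, 1.5-fold. No cause was tested beyond the construction of each setting. No paired analysis was possible because each tissue has 1 library. Depth limits the ratios most where the next tissue held under 4 counts.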
